A study of Mus musculus with 9 samples.

Results

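The nuclear genes for the subunits of oxidative phosphorylation were followed in RNA sequencing libraries of sorted mouse nucleus accumbens cells. They were chosen by name, as protein-coding nuclear genes whose symbols mark them as subunits of complexes I to V (the Nduf, Sdh, Uqcr, Cyc1, Cox4 to Cox8 and Atp5 families), with assembly factors and pseudogenes left out. This gave 86 of the 52636 genes in the count table. By symbol alone, 38 were assigned to complex I, 4 to complex II, 9 to complex III, 18 to complex IV and 17 to complex V. The 9 libraries form 3 groups of 3, titled SUS, RES and drug-naive. All came from male C57BL/6 mice with no transgene named. SUS and RES mice had self-administered cocaine, with a ceiling of 40 infusions while responding was on a fixed ratio, followed by 10 daily progressive ratio sessions (23 h each, 1.2 mg/kg per infusion). The brain was collected on day 3 after these sessions ended. Naive mice had no cocaine. Each condition's tissue punches, from 2 to 3 mice, were combined and digested with papain, and cells labelled by an anti-ChAT antibody, which marks the acetylcholine-making enzyme, were sorted. The labels do not say that each library had its own pool, so the spread behind the p-values is that between these libraries, which may be technical. Titles and the behavioural phenotype field conflict, since that field calls the RES libraries susceptible and the SUS libraries resilient, and the groups are named here by title alone.

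Oxidative phosphorylation makes most of the ATP of neurons. Complex I (NADH dehydrogenase) and complex II (succinate dehydrogenase) pass electrons to ubiquinone, complex III (cytochrome bc1) passes them to cytochrome c, and complex IV (cytochrome c oxidase) passes them to oxygen. The protons pumped on the way drive complex V, the ATP synthase. Core subunits of 4 of the complexes are also encoded in mitochondrial DNA, and complex II is wholly nuclear. The transcription factors NRF1 and GABPA (also called NRF2), with YY1 and SP1, are known to bind promoters of many of these genes.

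The promoters of 4 members are shown. Ndufs6 and Ndufb3 had higher counts, scaled to library size, in every SUS than every naive library. Cox6a1 had the smallest p for SUS against RES, and Atp5k ran against most other members. Each line gives the 250 bases before the RefSeq transcription start, 5′ to 3′ on the gene's own strand, in build GRCm38.p6, and capitals mark a match to the NRF1 motif.
Ndufs6, chr13:73328483-73328732, minus strand: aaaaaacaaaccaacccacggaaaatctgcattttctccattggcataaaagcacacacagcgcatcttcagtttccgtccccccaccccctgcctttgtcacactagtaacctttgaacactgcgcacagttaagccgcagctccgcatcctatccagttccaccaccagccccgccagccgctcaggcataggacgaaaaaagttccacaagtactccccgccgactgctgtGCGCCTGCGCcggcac
Cox6a1, chr5:115348959-115349208, minus strand: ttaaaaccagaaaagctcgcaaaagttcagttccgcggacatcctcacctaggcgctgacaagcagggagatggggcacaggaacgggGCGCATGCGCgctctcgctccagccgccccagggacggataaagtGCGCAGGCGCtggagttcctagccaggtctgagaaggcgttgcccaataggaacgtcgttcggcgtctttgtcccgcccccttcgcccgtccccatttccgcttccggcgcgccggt
Ndufb3, chr1:58586147-58586396, plus strand: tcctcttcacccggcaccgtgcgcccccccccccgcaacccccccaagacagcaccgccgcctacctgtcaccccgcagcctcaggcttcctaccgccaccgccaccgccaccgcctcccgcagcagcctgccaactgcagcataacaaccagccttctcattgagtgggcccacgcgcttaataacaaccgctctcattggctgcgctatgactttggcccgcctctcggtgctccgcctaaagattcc
Atp5k, chr5:108434400-108434649, minus strand: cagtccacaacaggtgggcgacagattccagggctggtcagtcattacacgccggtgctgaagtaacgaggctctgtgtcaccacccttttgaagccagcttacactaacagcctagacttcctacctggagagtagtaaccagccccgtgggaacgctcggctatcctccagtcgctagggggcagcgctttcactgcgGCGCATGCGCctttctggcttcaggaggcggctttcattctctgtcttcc
The first base of the NRF1 match lay at -16 from the start in Ndufs6, at -162 and -117 in Cox6a1 and at -50 in Atp5k. Ndufs6 also held a YY1 match, 33 bases after the start and so past the printed bases. Ndufb3 held none of the letters searched for NRF1, GABPA or YY1 in this window.

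Among the 69 members matched by symbol to a RefSeq promoter window (250 bases before to 50 after the start, both strands searched), 17 held the NRF1 motif (GCGCA, any base, then GCGC). That was 24.6% of these members, against 5.19% of all 27025 genes with a window. Those genes were not filtered by gene type or level, so they are not matched to the members. The YY1 motif AAGATGGCG was in 7 of the members (10.1%), against 1.64% of all these genes. The GABPA motif CCGGAAGT was in 5 members (7.25%), against 4.31% of all these genes, and the SP1 motif GGGCGGGG in 13 (18.8%), against 19.6%. The letters of these motifs do not contain one another, but their matches may lie in overlapping places of a window. The 27 matched members with an NRF1, GABPA or YY1 match made up 39.1% of the members with a window, against 10.3% of all genes with one. These counts describe letters in the windows and no binding was measured.

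Subunit RNA was measured at low levels. Total counts per library ran from 4471675 to 11155730. The members together took 13778, 11006 and 13704 counts in SUS libraries 1 to 3, 7519, 6686 and 6258 in RES libraries and 8123, 5102 and 14585 in naive libraries. As a share of the counts of nuclear protein-coding genes this was 0.214%, 0.193% and 0.255% in SUS, 0.198%, 0.208% and 0.177% in RES, and 0.186%, 0.208% and 0.21% in naive libraries. The 3 groups overlapped in this share, with the highest value in SUS 3 and the lowest in RES 3. To set the levels against counts not tied to expression, each gene's counts per kb of exon were divided by those of 1134 olfactory receptor genes of the same library, called times background here. A median of 3.73 times background was found over the 86 members, with a range of 0.84 to 12.6, and 52 of them (60.5%) exceeded 3 times background. In single libraries the members' median was 4.52, 3.25 and 4.24 times background in SUS, 3.34, 4.39 and 2.11 in RES, and 2.65, 4.49 and 3.68 in naive libraries. Among all 21883 nuclear protein-coding genes the median was 1.97 and 26.3% exceeded 3. The 78 cytosolic ribosomal protein genes had a median of 8.59, and the 13 mitochondrially encoded subunits of 1130, which are per-length values of transcripts from another genome.

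Some libraries stood apart. A density equal to the background would account for 27.9%, 31.6% and 35.8% of nuclear counts in SUS, 32.7%, 25.2% and 50.3% in RES, and 37.2%, 23.7% and 30.6% in naive libraries, the highest being RES 3. All 8 markers of cholinergic interneurons, the labelled cell type, had a mean under 3 times background, and their median ranged from 1.0 to 2.09 over the libraries, although no marker had a count of 0 in any library. The label was therefore not borne out by these markers. Averaged over the 9 libraries, all 18 microglial markers exceeded 3 times background, although their median was 1.98 in RES 2 and 2.15 in RES 3. None was at 0 in any library, and their summed CPM (counts scaled to library size with the trimmed mean of M values) ran from 329 to 6920 in SUS, from 159 to 2240 in RES and from 377 to 4030 in naive libraries. In these bulk libraries, fewer cells of a type and less RNA per cell cannot be told apart.

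Per kb of exon, the highest members were the ATP synthase alpha subunit Atp5a1 with a mean of 25.3 CPM per kb and subunit d, Atp5h, with 21.4. In complex I, Ndufs5, an accessory subunit, averaged 12.3 CPM per kb and Ndufb2 was lowest with 2.56. The divisor, here and for times background, was the length of all annotated exons of a gene, so the order can differ in CPM. Ndufb2 averaged 14.4 CPM over 5628 exonic bases, and Ndufs5 10.6 CPM over 860. In complex II the flavoprotein subunit Sdha averaged 15.3 and the iron-sulfur subunit Sdhb 11.6, above the membrane anchor Sdhc with 4.67. In complex III, Uqcr11 and Uqcrb were highest with 11.4 and 10.9 CPM per kb, and Cyc1, which encodes cytochrome c1, was lowest with 5.71. In complex IV, Cox8a averaged 19.1, Cox6a1 12.4 and Cox6b2, the testis isoform, 1.7, which is 0.84 times background. The lowest member of complex V was Atp5s with 2.44 CPM per kb. The median level was 3.44 times background in complex I, 4.71 in II, 4.39 in III, 3.98 in IV and 2.87 in V.

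**Figure D1:**
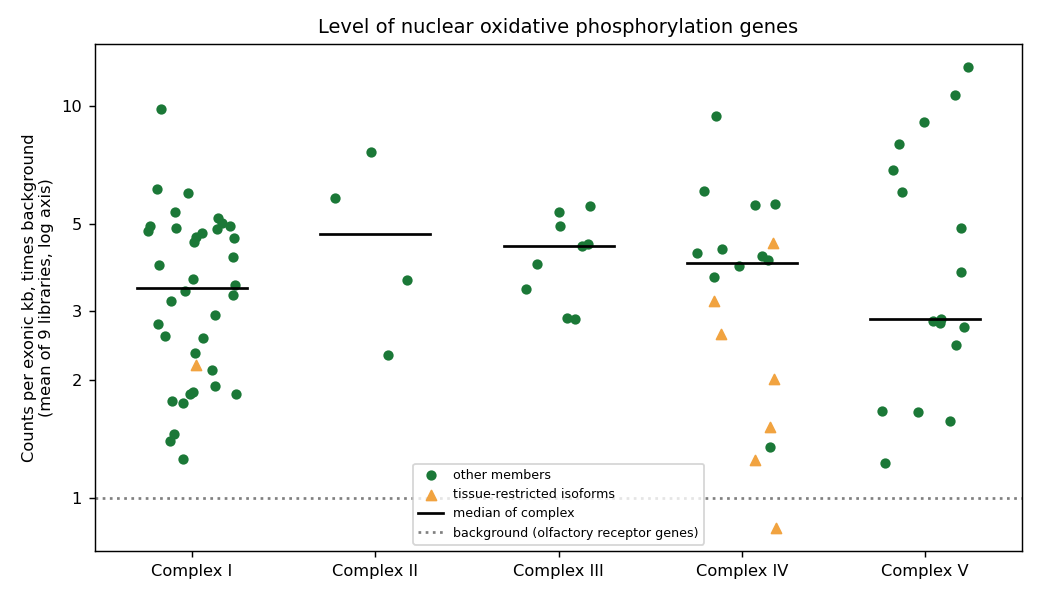
Counts per exonic kb in times background on a log axis, averaged over the 9 libraries, for each of the 86 members by complex; triangles are tissue-restricted isoforms, bars the median of a complex and the dotted line the background. 52 of the 86 lie over 3 times background, and Cox6b2 is lowest at 0.84.

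Several complex IV subunits have isoforms known to be restricted to particular tissues, and per kb of exon these did not all fall below their partners. Cox6a1, the widely expressed isoform, averaged 12.4 CPM per kb, and Cox6a2, the heart and muscle isoform, 4.07. Cox6b1 had 11.4 against 1.7 CPM per kb for its testis partner Cox6b2. Cox8a had 19.1, against 2.6 for Cox8b (heart and muscle) and 3.17 for Cox8c (testis), and these last were at 1.25 and 1.52 times background. The isoforms Cox4i1 and Cox4i2 lay closer together, at 8.28 and 6.44 CPM per kb, as did Cox7b with 8.35 and Cox7b2, known from testis, with 9.16. Without division by exon length, Cox4i1 and Cox4i2 averaged 12.8 and 5.07 CPM, and Cox7b and Cox7b2 10.1 and 4.97. The heart and muscle isoform Cox7a1 had 5.36 CPM per kb, Cox7a2 8.57 and Cox7a2l, a factor that ties complexes III and IV into supercomplexes, 11.5. The genes Atp5g1, Atp5g2 and Atp5g3, which encode the same mature subunit c, averaged 3.39, 5.84 and 5.47 CPM per kb. In CPM they averaged 16.7, 9.79 and 11.9, with Atp5g1 having the longest exons. Ndufa4 had 3.52 and its relative Ndufa4l2, known to be induced by low oxygen, 4.5 CPM per kb.

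The library-to-library swings were shared by much of the group. The summed CPM of the 86 members was 1490, 1220 and 1660 in SUS, 1320, 1440 and 814 in RES, and 1080, 1540 and 1350 in naive libraries. Thus the naive libraries lay within the range of the SUS libraries except for naive 1, and RES 3 was lowest of all. Each complex kept this order at its low end, with RES 3 holding the lowest summed CPM of complex I (350), II (63.9), III (78.3), IV (90.6) and V (231). Sdha illustrates the swing, with 72.7, 55.2 and 84.5 CPM in SUS, 59.4, 82.5 and 30 in RES, and 44.9, 71.9 and 66.3 in naive libraries. RES 3 held the lowest value of 55 of the 85 members tested (64.7%), which is near the 60.5% of other nuclear protein-coding genes over 3 times background for which it also did. SUS 3 held the highest value of 35 members (41.2%), against 25% of those other genes. As a description over the 9 libraries, which share depth and background, the median correlation of log2 CPM between 2 members was 0.39. Of the 86 members, 59 had r above 0.5 with the mean of the others. The share of other genes above that r was not counted, and the non-member Med13 had r = 0.993 with the members' mean.

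**Figure D2:**
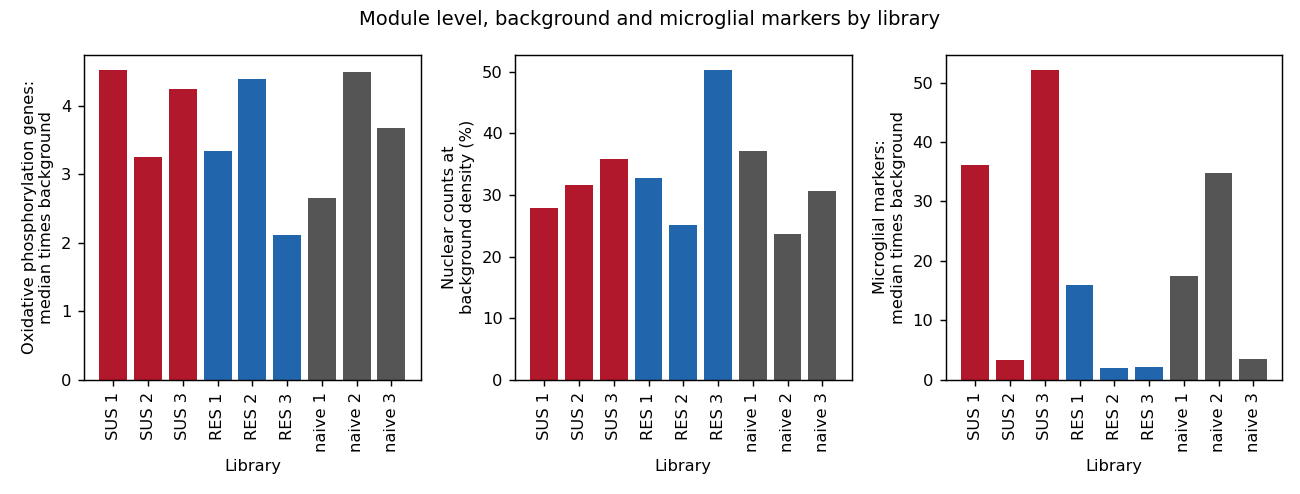
Bars give, for each SUS, RES and naive library, the members' median level in times background, the percentage of nuclear counts at background density, and the median level of the 18 microglial markers in times background. RES 3 has the lowest member median (2.11) and the highest background share (50.3%), and the microglial median runs from 1.98 to 52.1.

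**Figure D3:**
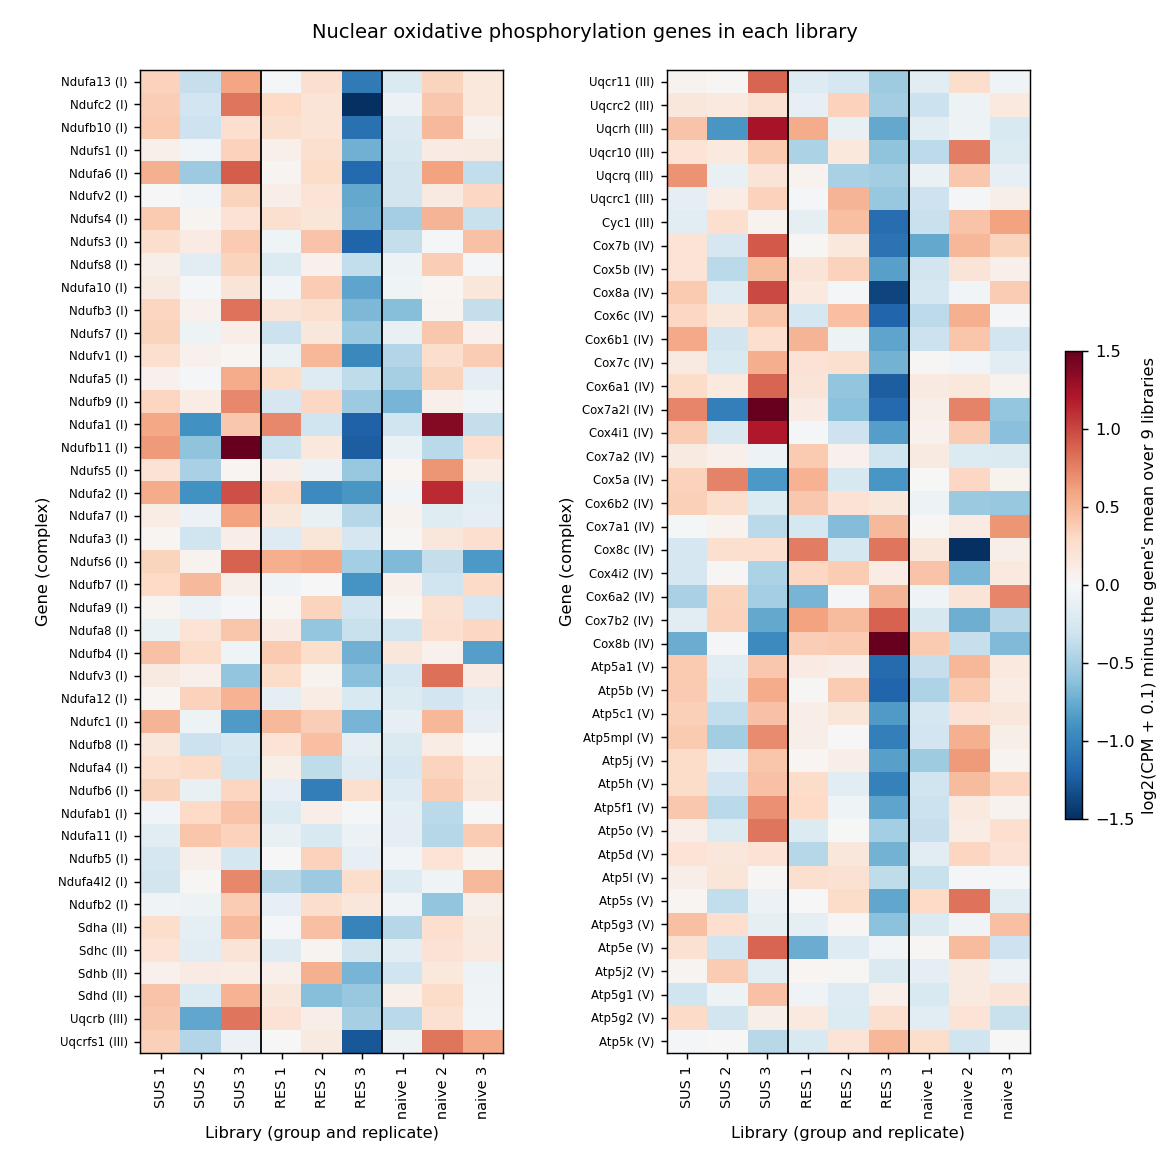
Colour gives the log2 CPM of 85 of the 86 members, each minus its own mean over the 9 libraries, with SUS, RES and naive libraries from left to right and genes labelled by complex. RES 3 is the lowest library for 55 of the 85 members tested and SUS 3 the highest for 35. The genes shown differ from those tested, since Cox8b is shown but was not tested, and a tested member is left out.

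A few members ran against the others. Atp5k, which encodes subunit e of the ATP synthase, had 7.36, 7.43 and 5.56 CPM in SUS, 6.31, 8.59 and 10.5 in RES, and 8.94, 6.05 and 7.4 in naive libraries. In CPM it was highest in RES 3, where most members were lowest, while in times background it was 7.47 in RES 3 and highest, at 8.11, in RES 2. In log2 CPM it had r = -0.87 with the mean of the other members over the 9 libraries. Cox7b2 was another, with 4.12, 5.88 and 2.66 CPM in SUS, 7.01, 6.44 and 8.58 in RES, and 3.87, 2.72 and 3.42 in naive libraries. All 3 RES libraries exceeded every SUS and naive library for Cox7b2, which had r = -0.68 with the other members. Further complex IV isoforms with negative values were Cox8b (r = -0.85), Cox6a2 (-0.56), Cox4i2 (-0.55), Cox8c (-0.54) and Cox7a1 (-0.52). Of these, Cox8b, Cox8c and Cox6a2 averaged only 1.25, 1.52 and 2.02 times background.

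Between the groups that took cocaine, most subunit genes had somewhat higher values in SUS than in RES libraries, but none passed the test. The fold change was positive for 70 of the 85 members tested, against 51.2% of all genes and 63.2% of the nuclear protein-coding genes above 3 times background, with a median log2 fold change (SUS over RES) of 0.28 and a range of -0.8 to 1.33. The median was 0.01 over all 39210 genes tested and 0.12 over the nuclear protein-coding genes above 3 times background. Of the 52 members above that level 88.5% were positive, with a median of 0.32. By complex the median over the members tested was 0.28 for I (32 of 38 positive), 0.27 for II (4 of 4), 0.33 for III (9 of 9), 0.23 for IV (10 of 17) and 0.39 for V (15 of 17). No member passed at an adjusted p of 0.05 with the edgeR quasi-likelihood test over all genes, and the share called among all genes was 0% as well. The smallest adjusted p among members was 0.87. An unadjusted p under 0.05 was reached by 7 members that were higher in SUS, against 4.01% of all genes higher, and by 1 that was lower, against 1.67% (5.68% in either direction). In either direction this was 9.41% of the members tested. It was 9.62% of the members above 3 times background, against 11.3% of the nuclear protein-coding genes above that level. DESeq2 put 6 members and limma-voom 7 below that p, and neither called any.

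Cox6a1, the widely expressed isoform of subunit VIa of complex IV (chr5:115345642-115348981, minus strand, ENSMUSG00000041697), had 9.86, 8.98 and 15 CPM in SUS, 9.29, 5.37 and 3.38 in RES, and 8.94, 9.07 and 8.42 in naive libraries. The SUS and RES libraries overlapped through RES 1, and the naive libraries were close together. Its log2 fold change, SUS over RES, was 0.92 with a standard error of 0.324 (edgeR, unadjusted p = 0.0125, adjusted p = 0.87), and it was 0.6 without RES 3. Cox4i1, the widely expressed isoform of subunit IV (chr8:120668222-120674207, plus strand, ENSMUSG00000031818), had 15.4, 9.98 and 27.2 CPM in SUS, 11.6, 9.45 and 6.63 in RES, and 12.3, 15.4 and 7.59 in naive libraries. SUS 3 was far above the rest and SUS 2 lay within the RES range. The log2 fold change, SUS over RES, was 0.93 with a standard error of 0.357 (unadjusted p = 0.0194, adjusted p = 0.87), and 0.47 without SUS 3. Cox7a2l had 23.1, 6.76 and 45.9 CPM in SUS, 15.1, 9.02 and 6.11 in RES, and 14.8, 23.3 and 9.25 in naive libraries. Its log2 fold change of 1.33 (standard error 0.527) had adjusted p = 0.87 and was 0.58 without SUS 3. In the other direction, Cox7b2 had a log2 fold change of -0.8 with a standard error of 0.314 (edgeR, unadjusted p = 0.0218). In CPM, it was one of 2 members lower in every SUS than every RES library, beside Cox4i2. Among members of at least 10 CPM in SUS or RES, those below RES with the smallest p were the complex I subunits Ndufb8 with a log2 fold change of -0.31, Ndufb5 with -0.23 and Ndufa9 with -0.07, and each overlapped between the groups. Non-overlapping libraries in the direction of Cox7b2 were found for 4.22% of all genes. Uqcr11 and Ndufb7 were higher in CPM in every SUS library, against 3.41% of all genes. In times background, Cox4i2 and Ndufb7 overlapped between the groups. Cox4i2 was at 3.18 in SUS 2 and 2.95 in RES 3, and Ndufb7 at 1.71 in SUS 3 and 2.1 in RES 2. Ndufb11 had a log2 fold change of 1.25 with a standard error of 0.488 (edgeR, unadjusted p = 0.022). Uqcrq had 0.59 with a standard error of 0.27 (edgeR, unadjusted p = 0.0446). Both had an adjusted p of 0.87 and overlapped between the groups. Without RES 3, 54 of the 85 members were positive and the median was 0.11. The microglial markers had a median log2 fold change of 2.09 in the same comparison (18 of 18 positive), the 10 oligodendrocyte markers of 1.13 (10 of 10) and the cytosolic ribosomal genes of 1.34 (77 of 77). With a microglial score as a covariate the members' median was 0.15. Over the 9 libraries, r with the mean of the microglial markers was 0.92 for Cox7a2l, 0.86 for Cox4i1 and 0.75 for Cox6a1. For Cox7b2 it was -0.66. With the mean of the other members, r was 0.75 for Cox7a2l, 0.75 for Cox4i1 and 0.79 for Cox6a1. The part of microglial RNA in the values of these single genes was not tested.

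Against naive libraries, the SUS libraries had slightly higher values for most members. Of the 85, 68 had a positive log2 fold change, against 52.2% of all genes and 52.8% of the nuclear protein-coding genes above 3 times background, with a median of 0.16 (all genes 0.02, nuclear protein-coding genes above 3 times background 0.02). Of the members above 3 times background 82.7% were positive, with a median of 0.16. By complex the medians were 0.08 for I, 0.18 for II, 0.24 for III, 0.26 for IV and 0.12 for V. No member passed the edgeR test, 0% of all genes did, and the smallest adjusted p was 1. An unadjusted p under 0.05 was reached by 4 members, all complex I subunits and all higher in SUS, against 1.71% of all genes higher, 1.42% lower and 3.12% in either direction. DESeq2 put 1 and limma-voom 7 below it. Without naive 1, 46 of the 85 members were positive and the median was 0.03, and without SUS 3 or SUS 2 the median was 0.05 or 0.24. The microglial markers had a median of 0.86 (18 of 18 positive) and the oligodendrocyte markers of 0.46 (10 of 10). The part of the microglial markers in the members' values was not tested beyond the covariate fit, in which the members' median was 0.11, and that of the oligodendrocyte markers was not tested.

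Ndufs6 encodes an accessory subunit of complex I that holds zinc. It lies at chr13:73319838-73328542 on the minus strand and has 898 exonic bases (GRCm38, ENSMUSG00000021606). It had 5.42, 4.43 and 7.98 CPM in SUS, 6.31, 6.44 and 2.99 in RES, and 2.67, 3.32 and 2.31 in naive libraries, from 50, 40 and 66, from 36, 30 and 23, and from 20, 11 and 25 counts. Every SUS library exceeded every naive library, and RES 3 fell within the naive range. The log2 fold change, SUS over naive, was 1.14 with a standard error of 0.368 (edgeR, unadjusted p = 0.00727, adjusted p = 1). Ndufb3, an accessory subunit of the membrane arm of complex I at chr1:58586384-58595964 (plus strand, ENSMUSG00000026032), had 4.77, 3.99 and 6.77 CPM in SUS, 4.38, 4.51 and 2.34 in RES, and 2.4, 3.93 and 2.96 in naive libraries. Its values came from 13 to 56 counts per library. In CPM, each SUS library lay above each naive one, SUS 2 by little. The log2 fold change was 0.78 with a standard error of 0.36 (edgeR, unadjusted p = 0.0464, adjusted p = 1). Over the 9 libraries, Ndufs6 and Ndufb3 averaged only 2.56 and 2.6 times background, both under 3. Ndufa12, an accessory subunit of the matrix arm, had 10.6, 13.2 and 14.9 CPM in SUS and 8.94, 8.46 and 9.25 in naive libraries. Its log2 fold change was 0.53 with a standard error of 0.22 (adjusted p = 1). Ndufb9 had 11.5, 9.87 and 15.2 CPM in SUS and 5.6, 9.67 and 8.88 in naive libraries, a log2 fold change of 0.62 with a standard error of 0.286 (adjusted p = 1), or 0.4 without naive 1. Cox4i1 had a log2 fold change, SUS over naive, of 0.61 (standard error 0.352) and Cox6a1 of 0.36 (0.313), neither reached an unadjusted p of 0.05, and without SUS 3 they were 0.15 and 0.1. In CPM, the libraries of the groups did not overlap for 5 members, all higher in SUS (Ndufs6, Ndufb3, Ndufa12, Ndufb9 and Atp5l). The shares of all genes were 3.85% higher and 4.15% lower. In times background, Ndufb3, Ndufb9 and Atp5l overlapped. Ndufb3 was at 2.63 in SUS 2 and 2.81 in naive 2, and Ndufb9 at 4.81 and 5.11. Atp5l was at 1.4 in SUS 3 and 1.69 in naive 2. Ndufab1, the mitochondrial acyl carrier protein, was next by p among members of at least 10 CPM in SUS or naive, with a log2 fold change of 0.4 and overlapping groups. Below naive, the members of that level with the smallest p were Uqcrfs1 with a log2 fold change of -0.48, Ndufs5 with -0.32 and Ndufv3 with -0.38, and all 3 overlapped between the groups. Uqcrfs1 averaged 8.49 CPM in SUS and 12 CPM in naive libraries, so it reached that level through the naive group alone.

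**Figure D4:**
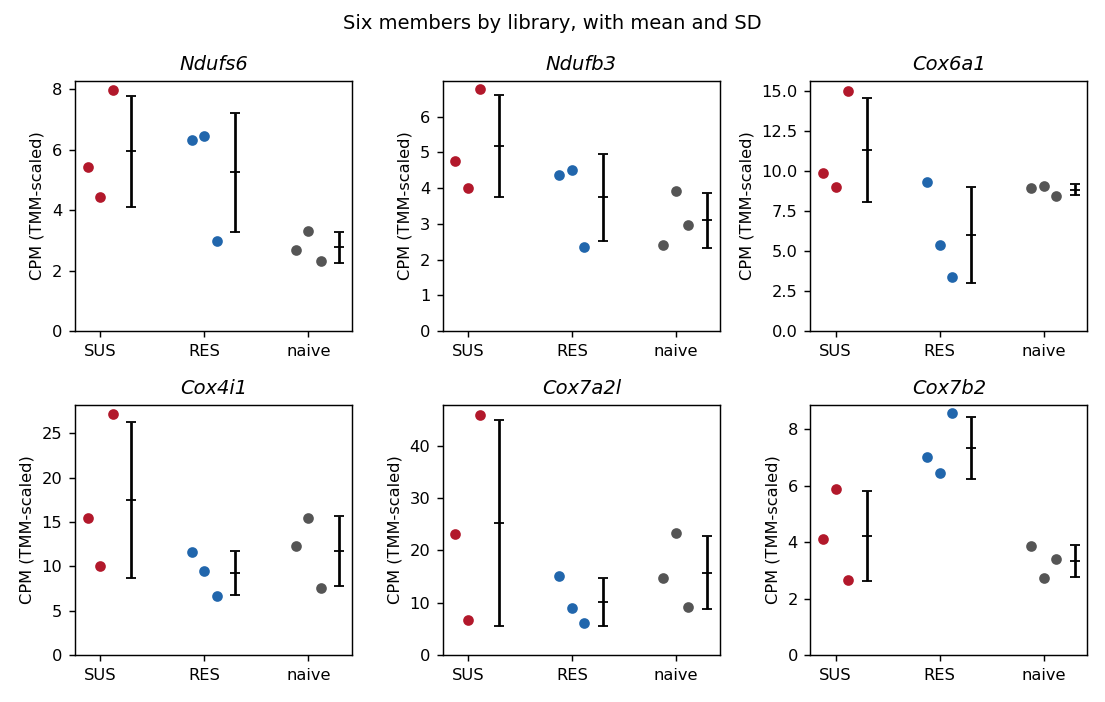
CPM of 6 members, with a point for each SUS, RES and naive library and bars for the mean and SD of 3 libraries. Ndufs6 lies between 4.43 and 7.98 CPM in SUS and between 2.31 and 3.32 CPM in naive libraries, and Cox7b2 is higher in all 3 RES libraries than in any other.

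In the RES libraries against naive, 57 of the 85 members had a negative log2 fold change and 28 a positive one, against 47.4% of all genes positive. Positive values were found for 32.9% of the members tested and 30.8% of those above 3 times background. Among the nuclear protein-coding genes above that level the share was lower, at 21.4%. The median of the members tested was -0.21 (all genes -0.02). Above 3 times background it was -0.23 for members and -0.16 for nuclear protein-coding genes. By complex the members' median was -0.19 for I, -0.15 for II, -0.34 for III, -0.21 for IV and -0.27 for V. No member passed the edgeR test, 0% of all genes did, and the smallest adjusted p was 1. The 2 members with an unadjusted p under 0.05 were Ndufs6 and Cox7b2, both higher in RES, against 0.479% of all genes higher, 0.441% lower and 0.921% in either direction. Ndufs6 had a log2 fold change of 0.94 (standard error 0.381) and Cox7b2 of 1.11 (0.329). DESeq2 put 2 members and limma-voom 4 below that p. Uqcrfs1, the Rieske iron-sulfur subunit of complex III, had 8.59, 9.45 and 3.51 CPM in RES and 8.14, 15.1 and 12.8 in naive libraries, a log2 fold change of -0.75 with a standard error of 0.355 (adjusted p = 1), or -0.39 without RES 3. Among members of at least 10 CPM in RES or naive, Atp5d and Ndufs5 followed by p, with log2 fold changes of -0.41 and -0.44. Atp5d encodes the delta subunit of the ATP synthase. Above naive, the members of that level with the smallest p were Ndufb2, Ndufb8 and Atp5g2 with 0.24, 0.22 and 0.19. All of these overlapped between the groups. Cox6a1 had -0.56 (standard error 0.333), Cox4i1 -0.32 (0.368) and Ndufb3 0.29 (0.379). In CPM, Cox7b2 and Cox6b2 were higher in every RES than every naive library, against 3.31% of all genes, and Uqcr11 lower, against 2.82%. In times background Uqcr11 overlapped, at 5.26 in RES 2 and 4.49 in naive 1. Cox6b2 averaged 0.84 times background, from 14, 10 and 16 counts in RES and 13, 4 and 13 in naive libraries. The sign of the median rested on 1 library, since it was 0.07 without RES 3, with 48 of 85 members positive. Without naive 1, 2 or 3 it was -0.32, -0.05 and -0.1. The microglial markers had a median log2 fold change of -1.27 (0 of 18 positive), the oligodendrocyte markers of -0.66 (0 of 10) and the cytosolic ribosomal genes of -0.75 (1 of 77). With the microglial covariate the members' median was -0.11. The SUS and RES comparisons share the naive libraries.

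With both cocaine groups combined against naive, the members were balanced. The log2 fold change was positive for 44 and negative for 41 of 85 (51.4% of all genes were positive, and 38.9% of the nuclear protein-coding genes above 3 times background), with a median of 0.01, the same as over all genes. Of the members above 3 times background 51.9% were positive. No member passed, as with all genes (0%). Ndufs6 and Cox7b2 had an unadjusted p under 0.05 and were higher, against 0.9% of all genes higher and 1.38% in either direction. DESeq2 put 2 and limma-voom 5 members below it. No member had all cocaine libraries above or all below the naive ones, against 0.617% and 0.553% of all genes. Ndufs6 had a log2 fold change of 1.05 with a standard error of 0.327 (edgeR, unadjusted p = 0.00585, adjusted p = 1), and RES 3, at 2.99 CPM, was the cocaine library below naive 2. Cox7b2 had 0.75, Ndufb3 0.57, Cox4i1 0.23 and Cox6a1 -0.01. Among members of at least 10 CPM in a group, the smallest p above naive were those of Ndufa12, Ndufb9 and Ndufab1, with 0.35, 0.38 and 0.27, and below naive those of Uqcrfs1, Ndufs5 and Ndufv3, with -0.6, -0.37 and -0.36.

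**Figure D5:**
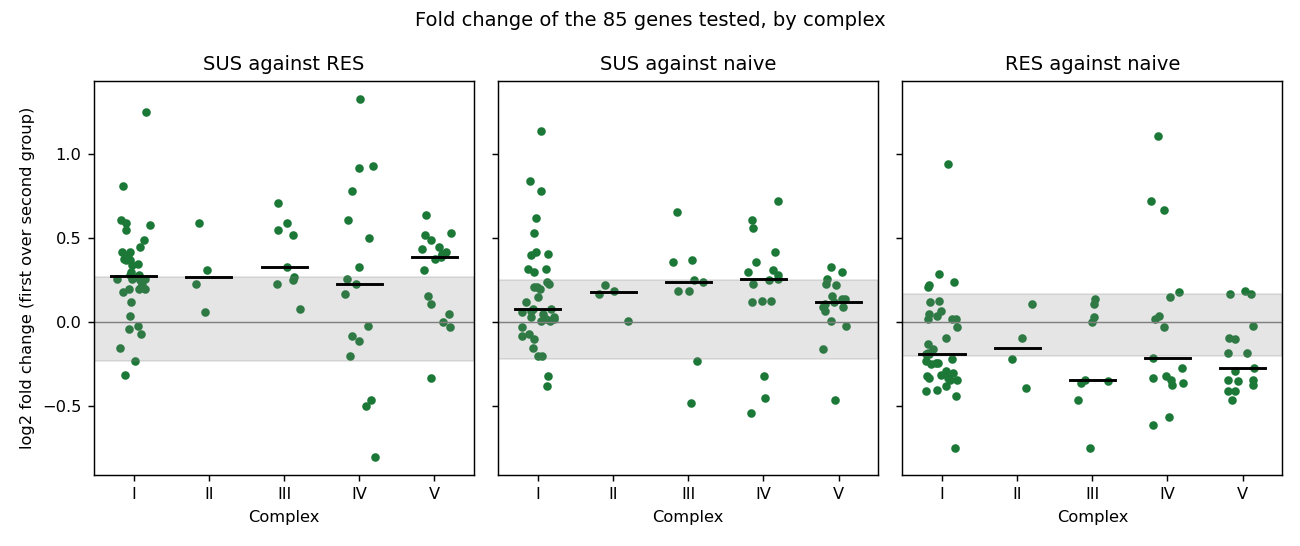
Log2 fold change of each of the 85 members tested in SUS against RES, SUS against naive and RES against naive, by complex; each point is a gene, black bars are medians of a complex and the grey band holds the middle 50% of all genes tested. The members' medians are 0.28, 0.16 and -0.21, and no member passed the adjusted threshold.

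The other genes of mitochondrial energy supply had no member past the adjusted test in any of these comparisons. For SUS over RES the median log2 fold change was 0.44 for the mitochondrially encoded subunits (12 of 13 positive), 0.06 for assembly factors (27 of 44), 0.24 for pyruvate dehydrogenase and the citric acid cycle, 0.25 for glycolysis (10 of 16), 0.3 for mitochondrial carriers and channels (11 of 11), 0.15 for mitochondrial ribosomal proteins (58 of 76) and 0.11 for the regulators of mitochondrial biogenesis (10 of 14). For RES over naive, 0 of 13 mitochondrially encoded subunits and 0 of 11 carriers were positive, with medians of -0.47 and -0.13. For SUS over naive, 6 of 13 and 10 of 11 were positive, with medians of -0.02 and 0.15, and the mitochondrially encoded subunits had a median standard error of 0.842. Members with an NRF1, GABPA or YY1 match in the promoter window had a median log2 fold change, SUS over RES, of 0.34, and those without 0.26. Over naive the medians were 0.19 and 0.15 in SUS, and -0.18 and -0.19 in RES libraries.

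Counting can be blurred where these genes share sequence or exons with other gene models. At least 20 stretches of 30 bases were shared with a pseudogene model by 41 of the members. In 33 members over 10% of the 30-base stretches of the exons also occur in another gene model, among them Cox6a1 (19.2%), Cox7a2l (16.8%), Ndufs6 (15.7%), Ndufb3 (14.2%), Cox4i1 (13.6%) and Atp5k (11.4%), and the share was 0.39% in Cox7b2. The highest share, 50.1%, was in Atp5o. Exons overlapped those of another model in 30 members, by over 10% of exonic bases in 11, and most in Atp5o, with 47.9% shared with an antisense model, followed by Ndufb6 with 39.0% and Ndufa13 with 30.0%. In Ndufb9 the overlap was 19.5% and in Ndufb5 12.3%. The values of these members are uncertain, since the strand setting of the counting is not given.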

How the data were processed

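Cells sorted from pooled nucleus accumbens punches were sequenced in 9 libraries, 3 per group. The deposited table holds the authors' raw counts per Ensembl gene, whole numbers without scaling. Per the submitters' processing notes, the build was GRCm38 and the tools were STAR 2.5.2b, FastQC, HTSeq, DESeq and DESeq2; strand setting and annotation are not given in the sources used here. Groups follow the sample titles.

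Of 52636 IDs, 52489 matched GENCODE M21, which gave symbols, positions and exon lengths, and 147 did not. Genes passing filterByExpr (39210, with 85 of the 86 members; Cox8b did not pass) were scaled by the trimmed mean of M values and compared by quasi-likelihood F tests in edgeR 4.0.16 (R 4.3.3), with Benjamini-Hochberg adjustment over all genes at 0.05. A model of 3 groups served the pairwise comparisons and one of 2 groups cocaine against naive. Alternatives were DESeq2 1.42.0, limma-voom (limma 3.58.1), other scalings and filters, covariates, background subtraction, a replicate block and leaving out libraries. The scripts were first tested on simulated counts in which 200 genes differed.

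The members and lists were chosen with earlier results of these data known. Named genes were the 4 module markers, the isoform pairs, the 2 highest and the lowest members per complex by CPM per kb, and the 3 smallest p each way per comparison among members averaging at least 10 CPM in at least 1 of the groups compared. Other members with an unadjusted p under 0.05 or non-overlapping libraries, and Atp5k and Sdha, were named after their values were seen. The values of 1 member are not reported here by name. Promoter windows came from RefSeq (GRCm38.p6).

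The labels do not say that library numbers pair the groups, and the main models held no pairing. Deviations from the group means had correlations of 0.44, 0.41 and 0.12 for same-numbered SUS and RES libraries. For differently numbered SUS and RES libraries they were 0.34, 0.07, -0.05, -0.31, -0.44 and -0.53. Same-numbered libraries had 0.03, -0.43 and -0.49 for SUS and naive, and 0.01, 0.01 and 0.07 for RES and naive. The highest value, 0.66, was that of SUS 2 and naive 3, which differ in number. These values do not settle whether the numbers pair the libraries. The replicate block changed no call.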

Additional observations from a re-analysis of the deposited data

How the results depend on the processing

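No member passed the adjusted test under any alternative run. The median log2 fold change of the members, when each library was left out in turn, ranged from 0.11 to 0.41 for SUS over RES, from 0.03 to 0.24 for SUS over naive, from -0.32 to 0.07 for RES over naive and from -0.09 to 0.11 for cocaine over naive. With the replicate block it was 0.31, 0.15, -0.23 and 0.00 in the same order, with a microglial covariate 0.15, 0.11, -0.11 and 0.01, and with background subtracted 0.45, 0.15, -0.37 and -0.11. Leaving out RES 3 and naive 1, chosen after seeing the data for their high background, gave 0.11, 0.03, -0.06 and 0.03.

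Some single genes changed sign. Ndufs6, SUS over RES, was -0.07 with limma-voom, -0.11 with the microglial covariate and -0.11 without those 2 libraries, and ranged from -0.11 to 0.37 with each library left out. Cox4i1, RES over naive, was 0.01 with limma-voom and 0.09 with the covariate. Over naive, cocaine values ranged from -0.1 to 0.45 for Cox4i1 and from -0.24 to 0.16 for Cox6a1, which was also 0.00 when scaled on coding genes and 0.17 without the 2 libraries. Ndufa9, SUS over RES, ranged from -0.21 to 0.08. The cause was not tested. Ndufs6 rests on 11 to 66 counts per library, and the members' median standard error of 0.32 (RES against naive) limits what single genes can show.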

Other observations

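The non-member coding genes whose log2 CPM over the 9 libraries was most like the mean of the members were Med13 (r = 0.993), 1810013L24Rik (0.993), Lsm14a (0.992), Tnks2 (0.991) and Arf1 (0.99), a description over libraries that share depth and background. The astrocyte markers, in median times background, were at 11.8, 8.67 and 5.88 in SUS, 8.02, 22.6 and 4.12 in RES, and 6.5, 12 and 16.4 in naive libraries. Medium spiny neuron markers were at 4.42, 9.89 and 3.36 in SUS, 6.35, 10.2 and 3.31 in RES, and 4.54, 8.71 and 7.75 in naive libraries, so both lists exceeded the cholinergic markers in every library.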
